A study of Homo sapiens with 6 samples.

Results

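The HOX genes of the HOXA, HOXB, HOXC and HOXD clusters were followed across 3 human lung cancer cell lines. Members were all genes whose symbol was HOX, a cluster letter from A to D and a number, which gave 39 protein-coding genes of 26485 genes in the tables. They divided into 11 HOXA, 10 HOXB, 9 HOXC and 9 HOXD genes. Each member had a single line in every table, so no values had to be added up. The lines were PC9-BrM4, PC9-AMG and PC9, each in ordinary culture without added treatment and each with 2 messenger RNA libraries. PC9 is an established lung adenocarcinoma line that carries a mutant EGFR. Earlier work describes PC9-BrM4 as a brain-metastatic derivative of PC9, although the labels do not say so, and they do not explain AMG in PC9-AMG. The 3 lines share the PC9 background, and each subline is a single line.

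HOX genes encode transcription factors with a homeodomain, a DNA-binding fold, and they lie in 4 clusters in the human genome. Their position in a cluster is numbered from 1 at the end whose genes act in the head and neck to 13 at the end whose genes act in the tail and the limb tips, and genes with the same number in different clusters are paralogs. In the embryo the order of genes along a cluster follows the order of their domains along the body axis, and in adult cells the combination of active HOX genes keeps a record of where in the body a cell arose. The developing lung is known for anterior and middle genes, among them HOXA5 and HOXB5. HOX proteins bind DNA together with the PBX and MEIS homeodomain cofactors, and Polycomb proteins keep unused HOX genes silent.

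Levels are in TPM, transcript abundances corrected for gene length and scaled to the same total in each library, so they are relative within a library. The aligned sequence behind a library was estimated at 2.66 to 4.39 gigabases, and 1 TPM corresponded to a mean per-base coverage of 1.14 to 1.88, so a level of a few hundredths of a TPM rests on very little sequence. From 13455 to 13764 genes per library were at 1 TPM or more. The cells had the epithelial markers EPCAM at 665 to 726 TPM and KRT8 at 3085 to 4870 TPM. The alveolar marker NKX2-1 was at most 0.041 TPM and SFTPC was listed at 0 in all 6 libraries, so the lung lineage of the label was not visible in these markers. Of 3 leukocyte markers, PTPRC was at most 0.150 TPM and CD3E at most 0.071 TPM, while CD68, a lysosomal protein best known in macrophages, had 41.1 and 41.3 TPM in PC9-BrM4, 40.1 and 39.9 TPM in PC9-AMG, and 49.2 and 48.9 TPM in PC9. The sum of 3 endothelial markers (PECAM1, CDH5 and VWF) was 2.25 to 2.32 TPM in PC9-BrM4, 5.24 to 6.04 TPM in PC9-AMG and 4.17 to 4.49 TPM in PC9, with CDH5 at up to 4.08 TPM. Of 3 fibroblast markers, COL1A2 was listed at 0 throughout and COL3A1 was at most 0.027 TPM. COL1A1, a fibroblast collagen gene, was higher in PC9-AMG, at 14.4 and 14.8 TPM, than in PC9, at 4.77 and 5.02 TPM. The part of these markers in the HOX differences was not tested. Since these were bulk cultures, fewer cells that express a gene and less RNA per cell cannot be told apart.

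The HOX repertoire was small and concentrated. Of the 39 genes, 10 had at least 1 TPM in all 6 libraries and are called active, 23 were under 1 TPM in every library and are called silent, and 6 lay on both sides of that level. The active genes were HOXA2, HOXA3, HOXA9, HOXB3, HOXB5, HOXB6, HOXB7, HOXC8, HOXC9 and HOXC11. Among the genes on both sides were HOXA5, HOXB9, HOXC4, HOXC6 and HOXC10. By cluster, 3 of 11 HOXA genes, 4 of 10 HOXB genes, 3 of 9 HOXC genes and 0 of 9 HOXD genes were active. The level of 1 TPM is a convention, and with 2 TPM in its place 6 genes were active.

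**Figure D1:**
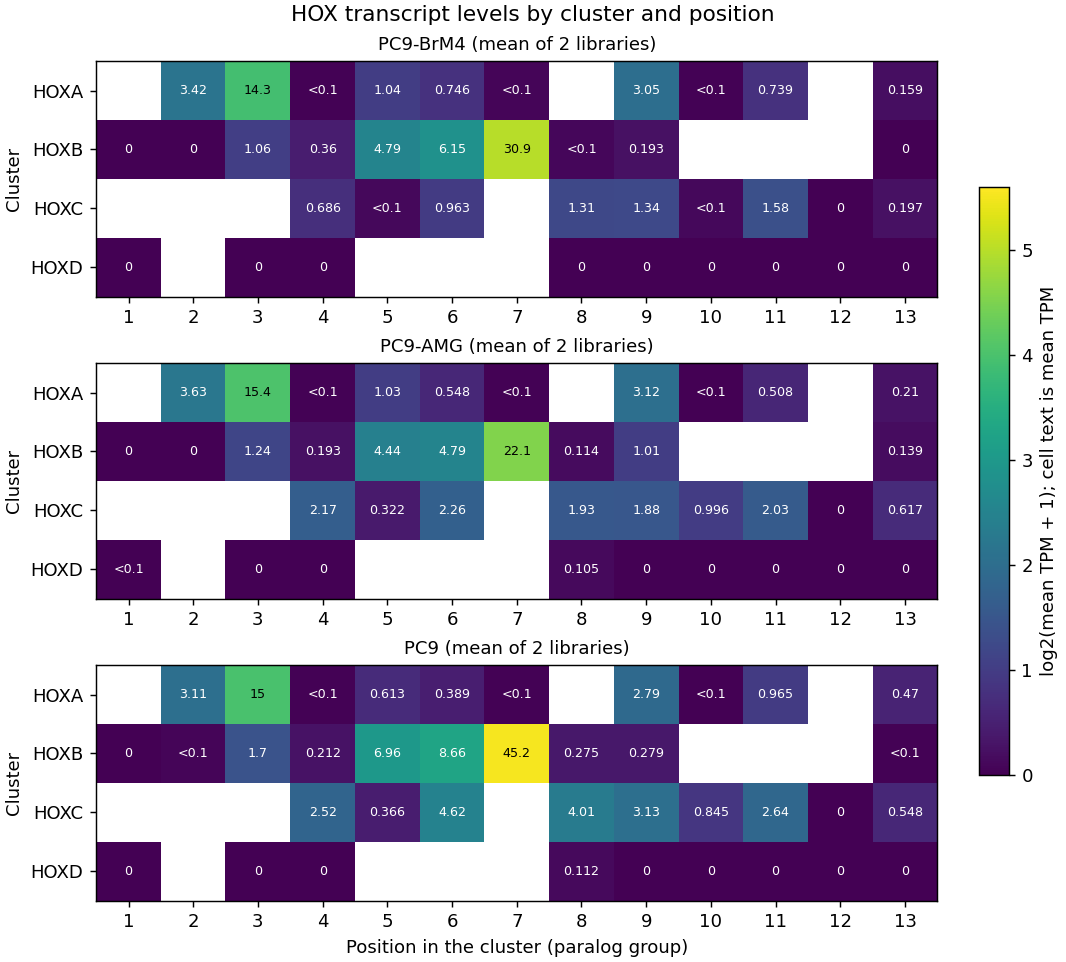
Mean TPM of each HOX gene (n = 2 libraries per line), with the 4 clusters as rows and positions 1 to 13 as columns, in PC9-BrM4 (top), PC9-AMG (middle) and PC9 (bottom). Colour is log2(mean TPM + 1), the number in a cell is the mean TPM, and blank cells are positions without a gene or without a value shown. HOXB7 and HOXA3 stand out in each line, and the HOXD row is at or near 0.

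A single gene, HOXB7, carried a large share of HOX transcripts. HOXB7 is a middle gene of the HOXB cluster that is found overexpressed in several carcinomas. It made up 43.2% and 40.0% of the summed HOX TPM in the PC9-BrM4 libraries, 30.9% and 30.5% in PC9-AMG, and 42.8% and 42.2% in PC9. Next came HOXA3, a patterning gene of the pharyngeal arches that in mice is needed for the thymus and parathyroid, with 14.1% to 22.2% of the sum. Among the 14195 genes that passed the filter for testing (at least 1 TPM in at least 2 of the 6 libraries), the mean of HOXB7 over the libraries, 32.7 TPM, was at percentile 62.2. HOXA3, at 14.9 TPM, was at percentile 41.8, and the other 12 HOX genes that passed were at or below percentile 25.9. The median of the tested genes was 20.9 TPM, so most active HOX genes were low transcripts.

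The HOXA cluster (chromosome 7) alternated between genes with transcripts and genes almost without. HOXA3 had 14.1 and 14.5 TPM in PC9-BrM4, 15.9 and 15.0 TPM in PC9-AMG, and 14.5 and 15.4 TPM in PC9. HOXA2, which specifies the second pharyngeal arch, ran from 3.11 to 4.13 TPM over the 6 libraries, and HOXA9, a posterior gene best known for its part in blood stem cells and leukaemia, from 2.44 to 3.36 TPM. Between HOXA3 and HOXA9 lay HOXA4 and HOXA7, which were at most 0.057 and 0.097 TPM and listed at 0 in 3 libraries each. Next to HOXA9, HOXA10 did not exceed 0.020 TPM. Active and silent neighbours thus stood side by side over a few kilobases in each line. The posterior genes HOXA11, which acts in the forearm and uterus, and HOXA13, which acts in the digits and genital tract, stayed under 1 TPM, with maxima of 0.998 and 0.546 TPM. HOXA6 reached 0.971 TPM at most, in a PC9-BrM4 library.

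In the HOXB cluster (chromosome 17, 48529445 to 48728749, hg38) the genes with transcripts sat in a block from HOXB5 to HOXB7, with HOXB3 lower. HOXB1 was listed at 0 in all 6 libraries, and HOXB2 in all but 1 PC9 library, where it had 0.10 TPM. HOXB4, which lies between HOXB3 and HOXB5, was at most 0.404 TPM. Past HOXB7 the levels dropped sharply. HOXB8, the direct neighbour of HOXB7, had at most 0.342 TPM. HOXB13, a gene of the prostate and the far end of the cluster, had 0.159 and 0.118 TPM in PC9-AMG, 0 TPM in both PC9-BrM4 libraries, and 0.045 and 0 TPM in PC9.

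HOXC genes (chromosome 12, 53938792 to 54056030) were low and more evenly spread. The highest value of the cluster was 4.75 TPM, for HOXC6 in PC9. HOXC12 was listed at 0 in all 6 libraries, HOXC13, a gene of hair and nails, reached 0.724 TPM and HOXC5 0.472 TPM. HOXD genes (chromosome 2, 176092804 to 176190907) were all silent, and 7 of the 9 were listed at 0 in all 6 libraries. HOXD8 had 0 TPM in both PC9-BrM4 libraries, 0.037 and 0.172 TPM in PC9-AMG, and 0.105 and 0.119 TPM in PC9. HOXD1 had 0.025 TPM in 1 PC9-AMG library and 0 elsewhere.

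Promoter sequence is shown for 3 genes with different patterns: HOXC4, whose level differed between the lines, HOXA9, active in each, and HOXA4, silent in each and in the same cluster as HOXA9. The HOXC4 window is also that of HOXC5, which was silent in each line, so it does not belong to 1 pattern alone. The windows run from 250 bases before to 50 bases after the start of transcription in RefSeq (build GRCh38.p14), 5′ to 3′ on the strand of the gene, with each CpG in capitals. HOXC4 is chr12:54016638-54016937 on the plus strand and has 15 CpG, HOXA9 is chr7:27165488-27165787 on the minus strand and has 22 CpG, and HOXA4 is chr7:27130708-27131007 on the minus strand and has 27 CpG.
HOXC4: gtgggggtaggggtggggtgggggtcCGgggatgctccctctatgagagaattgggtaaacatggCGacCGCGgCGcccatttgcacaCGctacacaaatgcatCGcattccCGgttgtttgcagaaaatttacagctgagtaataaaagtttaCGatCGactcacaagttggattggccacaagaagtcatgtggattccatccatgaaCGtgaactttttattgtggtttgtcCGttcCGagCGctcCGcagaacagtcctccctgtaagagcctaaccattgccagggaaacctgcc
HOXA9: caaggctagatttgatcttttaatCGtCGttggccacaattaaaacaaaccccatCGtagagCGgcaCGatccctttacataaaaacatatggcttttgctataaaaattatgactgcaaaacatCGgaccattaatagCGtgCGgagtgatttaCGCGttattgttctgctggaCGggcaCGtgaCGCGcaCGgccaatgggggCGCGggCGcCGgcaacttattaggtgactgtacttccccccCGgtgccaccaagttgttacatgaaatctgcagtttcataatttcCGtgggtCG
HOXA4: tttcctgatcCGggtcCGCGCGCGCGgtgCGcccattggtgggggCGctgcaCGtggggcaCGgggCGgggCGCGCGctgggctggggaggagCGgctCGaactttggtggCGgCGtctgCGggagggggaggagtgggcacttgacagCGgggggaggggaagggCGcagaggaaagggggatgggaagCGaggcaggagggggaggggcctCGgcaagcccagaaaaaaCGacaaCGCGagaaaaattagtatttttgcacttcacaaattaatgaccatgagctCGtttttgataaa

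A CpG is the site of DNA methylation in mammals, and promoters rich in CpG are usual among developmental genes. RefSeq windows were at hand for 20 HOX genes, which form 19 distinct windows because HOXC4 and HOXC5 have the same one. Their median was 22.5 CpG per 300 bases, against 14 CpG over all 27305 promoters of the table. The ratio of CpG observed to that predicted from base content had a median of 0.869 for HOX genes and 0.580 for all promoters. The 16 silent HOX genes with a window had a median of 24.5 CpG and the 3 active ones 15 CpG, with a range of 4 to 44 CpG among the silent genes that spans the active ones (11 to 22 CpG). The 3 active windows were all of HOXA genes (HOXA2, HOXA3 and HOXA9), while many of the silent ones were of HOXD genes. No active HOXB or HOXC gene had a window, HOXB7 included. The silent genes with the fewest CpG were HOXD4, with 4 CpG, and HOXB1, with 11 CpG. The letters TATAAA were searched anywhere in the window on either strand. They were present in 4 of 20 HOX windows, those of HOXD13, HOXA3, HOXA9 and HOXA10, or 20%, against 12.0% of all promoters. Their distance from the start of transcription was not used, so a match need not be a TATA box. The letters TGATTNAT, a joint binding sequence of PBX and HOX proteins, were found on either strand in the windows of HOXD11 and HOXA2, or 10%, against 2.94% of all promoters. Methylation itself was not measured.

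**Figure D2:**
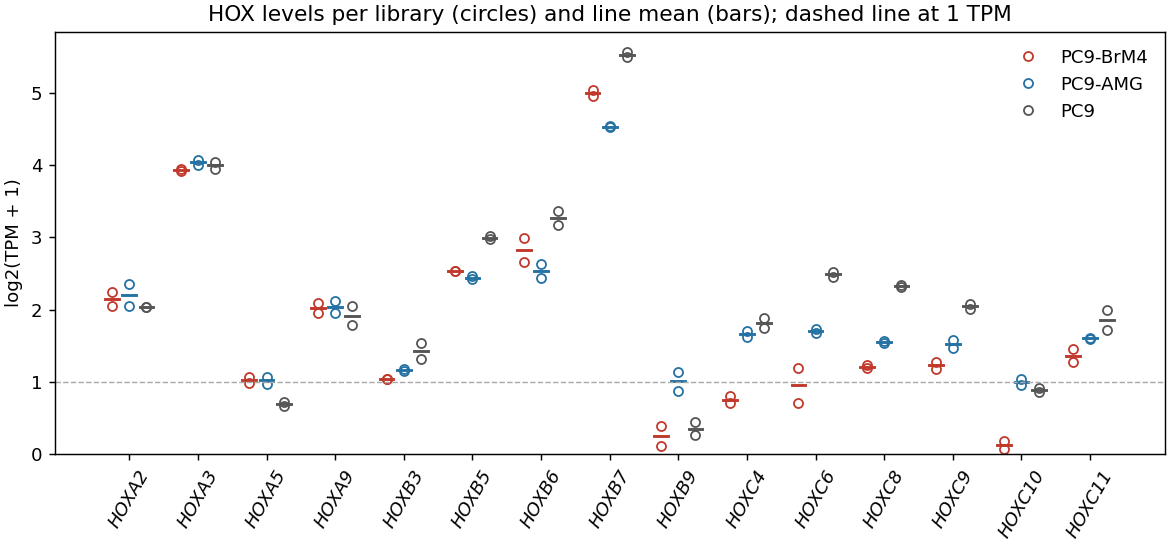
Levels of HOX genes that passed the filter for testing, and of HOXB9 and HOXC10, in each library. The vertical axis is log2(TPM + 1), circles are libraries of PC9-BrM4 (left), PC9-AMG (middle) and PC9 (right), short bars are line means (n = 2) and the dashed line marks 1 TPM. The circles of HOXA2, HOXA3 and HOXA9 lie close together over the lines, while those of HOXB5, HOXB7, HOXC6, HOXC8 and HOXC9 are highest in PC9.

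Summed by cluster, HOXA transcripts were closer between the lines than HOXB and HOXC transcripts. HOXA genes added up to 24.5 ± 0.981 TPM in PC9-BrM4, 25.7 ± 0.026 TPM in PC9-AMG and 24.2 ± 1.55 TPM in PC9 (SD, n = 2). Both PC9-AMG libraries, at 25.7 TPM, were above both PC9-BrM4 libraries, at 23.9 and 25.2 TPM, and above both PC9 libraries, at 23.1 and 25.3 TPM. HOXB genes added up to 43.5 ± 0.392 TPM in PC9-BrM4, 34.1 ± 0.571 TPM in PC9-AMG and 63.3 ± 2.19 TPM in PC9. HOXC genes added up to 6.27 ± 0.452 TPM in PC9-BrM4, 12.2 ± 0.336 TPM in PC9-AMG and 18.7 ± 1.01 TPM in PC9. The order of the lines was therefore not the same in the HOXB and HOXC sums: PC9-AMG was lowest in HOXB and PC9-BrM4 lowest in HOXC, and PC9 was highest in both. The HOXB sum of PC9-BrM4 was 0.687 of that of PC9, and its HOXC sum 0.335. For PC9-AMG the ratios to PC9 were 0.538 for HOXB and 0.654 for HOXC. All HOX genes together came to 74.3 TPM in PC9-BrM4, 72.1 TPM in PC9-AMG and 106 TPM in PC9. These sums were not tested.

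Set against its parent, PC9-BrM4 showed where the HOX genes of this subline stood in culture. The 5 tested HOXC genes fell, HOXC6 and HOXC8 by the most on the log2(TPM + 1) scale. The 4 tested HOXB genes fell too, and HOXA genes other than HOXA5 did not pass. Per-gene tests used limma, a linear model with moderated variances, on log2(TPM + 1), and a gene was called at a Benjamini-Hochberg adjusted p of at most 0.05. The filter left 14 of the 39 HOX genes (5 HOXA, 4 HOXB, 5 HOXC and 0 HOXD), so the counts describe those genes and not the clusters as a whole. In PC9-BrM4, 1 of the 14 rose and 9 fell, and of all tested genes 23.4% rose and 23.1% fell (46.6% called in either direction). The median log2 fold change of the 14 was -0.45, against -0.0016 for all tested genes. Libraries did not overlap for 3 of the 14 that were higher in PC9-BrM4 and 9 that were lower, where 37.4% and 37.8% of all tested genes did so.

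HOXC6, which patterns the thorax and is known in prostate and breast tumours, had 0.634 and 1.29 TPM in PC9-BrM4 libraries, against 4.75 and 4.49 TPM in PC9 libraries. HOXC8, a gene of the thoracic skeleton in mice, had 1.28 and 1.34 TPM in PC9-BrM4 and 4.05 and 3.98 TPM in PC9. In both genes each PC9-BrM4 library was below each PC9 library by a wide margin. The log2 fold changes were -1.54 ± 0.16 (SE) for HOXC6 and -1.12 ± 0.098 for HOXC8 (limma adjusted p = 0.00027 and 0.00012). HOXC4, the most anterior gene of the cluster, whose promoter is printed above, had 0.632 and 0.740 TPM in PC9-BrM4 and 2.34 and 2.70 TPM in PC9. HOXC9, which in mice sets the identity of thoracic motor neurons, had 1.27 and 1.42 TPM in PC9-BrM4 and 3.03 and 3.24 TPM in PC9. Again each PC9-BrM4 value lay under both PC9 values, with log2 fold changes of -1.06 for HOXC4 and -0.82 for HOXC9 (limma adjusted p = 0.00029 and 0.00075). HOXC4 reached 1 TPM only in PC9 and PC9-AMG, so those lines alone brought it past the filter. The limma fit without a filter called HOXC4 lower too (adjusted p = 0.0020).

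HOXC11, a posterior gene of the cluster, had 1.74 and 1.41 TPM in PC9-BrM4 and 2.28 and 2.99 TPM in PC9, a log2 fold change of -0.49 (limma adjusted p = 0.018). This was the smallest HOXC difference among those tested, and the call was lost without PC9-BrM4 replicate 2 (adjusted p = 0.091) or without PC9 replicate 2 (adjusted p = 0.0995). HOXC10, which in mice acts in the lumbar region, did not pass the filter, and it had 0.133 and 0.051 TPM in PC9-BrM4 and 0.880 and 0.810 TPM in PC9. With no filter on low values, limma called 15.8% of all 19650 genes higher and 16.2% lower in PC9-BrM4 (32.0% in either direction). It tested 30 HOX genes and called 11 of them, 1 higher and 10 lower. HOXC10 was then among those lower (log2 fold change -0.76, adjusted p = 0.0019), as was HOXA13 (-0.34, adjusted p = 0.019), at 0.129 and 0.189 TPM in PC9-BrM4 against 0.395 and 0.546 TPM in PC9. HOXC5 and HOXC13 did not pass in that fit (-0.32 and -0.36, limma adjusted p = 0.052 and 0.078). A fold change on log2(TPM + 1) understates the change of such low genes. With a pseudocount of 0.1 TPM, the log2 fold changes of HOXC6, HOXC4, HOXC8 and HOXB3 in PC9-BrM4 were -2.22, -1.74, -1.54 and -0.63. On that scale HOXC4 fell by more than HOXC8.

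In the HOXB cluster, HOXB7 had 31.8 and 30.0 TPM in PC9-BrM4 and 44.0 and 46.3 TPM in PC9. HOXB5, which in mice acts in lung branching, had 4.76 and 4.81 TPM in PC9-BrM4 and 6.84 and 7.07 TPM in PC9. Both genes were lower in each PC9-BrM4 library, with log2 fold changes of -0.53 ± 0.059 for HOXB7 and -0.46 ± 0.084 for HOXB5 (SE, limma adjusted p = 0.00033 and 0.0035). HOXB6, between them, had 5.34 and 6.97 TPM in PC9-BrM4 and 8.04 and 9.28 TPM in PC9, and HOXB3, an anterior gene, had 1.05 and 1.06 TPM in PC9-BrM4 and 1.91 and 1.49 TPM in PC9. Their log2 fold changes were -0.44 for HOXB6 and -0.39 for HOXB3 (limma adjusted p = 0.032 and 0.031). In the limma fit without a filter HOXB6 did not pass (adjusted p = 0.090), while HOXB3 did (adjusted p = 0.032). HOXB3 lost its call in 7 of 14 alternatives, not all of which left out a library. Both calls also depended on single libraries. HOXB6 had an adjusted p of 0.159 without PC9-BrM4 replicate 1 and 0.155 without PC9 replicate 2. HOXB3 had an adjusted p of 0.0863 without PC9-BrM4 replicate 1, 0.0874 without PC9-BrM4 replicate 2, 0.0511 and 0.0513 without PC9-AMG replicate 1 or replicate 2, and 0.160 without PC9 replicate 1.

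HOXA5, which is needed for the trachea and lung in mice, was the only HOX gene called higher in PC9-BrM4 in the limma fit. It reached 1 TPM only in replicate 2 of each subline, so the sublines alone brought it past the filter. The limma fit without a filter called it higher too (adjusted p = 0.017). It had 0.977 and 1.10 TPM in PC9-BrM4 and 0.583 and 0.644 TPM in PC9, a log2 fold change of 0.34 (adjusted p = 0.045). The libraries did not overlap, but the call was lost when any 1 of the 6 libraries was left out (adjusted p of 0.0599 to 0.140). Among the other tested HOXA genes, log2 fold changes were 0.10 for HOXA2, -0.06 for HOXA3 and 0.10 for HOXA9, none of which passed in limma. For HOXA3, the second most abundant HOX gene, the standard error was 0.071 on the log2 scale.

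The comparison of PC9-AMG with PC9 used the same PC9 libraries, so the fold changes of both sublines share their reference. Of the 14 tested HOX genes, 1 rose and 6 fell in PC9-AMG, while 27.8% of all tested genes rose and 27.7% fell (55.5% in either direction). The median log2 fold change of the 14 was -0.26. Without overlap between libraries, 3 of the 14 were higher and 9 lower in PC9-AMG, against 39.6% and 40.2% of all tested genes. HOXB7 had 22.1 and 22.2 TPM in PC9-AMG, against 44.0 and 46.3 TPM in PC9. HOXB6 had 4.39 and 5.18 TPM in PC9-AMG, and HOXB5 4.36 and 4.52 TPM, all below their PC9 values given above. The log2 fold changes were -0.996 ± 0.059 for HOXB7, -0.74 ± 0.14 for HOXB6 and -0.55 ± 0.084 for HOXB5 (SE, limma adjusted p = 2.0e-05, 0.0028 and 0.0012). HOXB3 had 1.22 and 1.26 TPM in PC9-AMG and did not pass (log2 fold change -0.26, limma adjusted p = 0.096), although both libraries were below those of PC9. In order along the cluster, HOXB3, HOXB5, HOXB6 and HOXB7 thus had fold changes that grew in size, as the plot of fold changes shows; whether they differ from one another was not tested.

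Within the HOXC cluster, the middle genes fell in PC9-AMG and both outer ones that were tested did not pass. HOXC6 had 2.20 and 2.33 TPM in PC9-AMG, against 4.75 and 4.49 TPM in PC9. HOXC8 had 1.95 and 1.90 TPM in PC9-AMG, against 4.05 and 3.98 TPM in PC9, and HOXC9 had 1.77 and 2.00 TPM in PC9-AMG, against 3.03 and 3.24 TPM in PC9. All 3 genes were lower in each PC9-AMG library, with log2 fold changes of -0.78, -0.78 and -0.52 (limma adjusted p = 0.0045, 0.00047 and 0.0048). HOXC4 stood at 2.27 and 2.08 TPM in PC9-AMG and 2.34 and 2.70 TPM in PC9, a log2 fold change of -0.15 (adjusted p = 0.301), and HOXC11 at 2.01 and 2.05 TPM in PC9-AMG, with -0.26 (adjusted p = 0.133). HOXC10, which did not pass the filter, had 0.934 and 1.06 TPM in PC9-AMG.

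HOXA5, which passed the filter only through the sublines, also rose in PC9-AMG. It had 0.965 and 1.09 TPM there, against 0.583 and 0.644 TPM in PC9 (log2 fold change 0.33, limma adjusted p = 0.041). The call was lost without either PC9-AMG library or either PC9 library (adjusted p of 0.0749 to 0.152). With a pseudocount of 0.1 TPM the log2 fold change of HOXA5 was 0.67 in PC9-BrM4 and 0.66 in PC9-AMG. HOXB9, a posterior neighbour of the silent HOXB8, did not pass the filter, and it had 1.19 and 0.836 TPM in PC9-AMG and 0.356 and 0.201 TPM in PC9. With no filter, limma called 21.1% of all genes higher and 19.5% lower in PC9-AMG (40.6% in either direction). Of 30 HOX genes it called 11, 3 higher and 8 lower. HOXB9 was then called higher (log2 fold change 0.65, adjusted p = 0.018), and HOXA11 lower (-0.38, adjusted p = 0.015), at 0.604 and 0.413 TPM in PC9-AMG and 0.933 and 0.998 TPM in PC9.

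**Figure D3:**
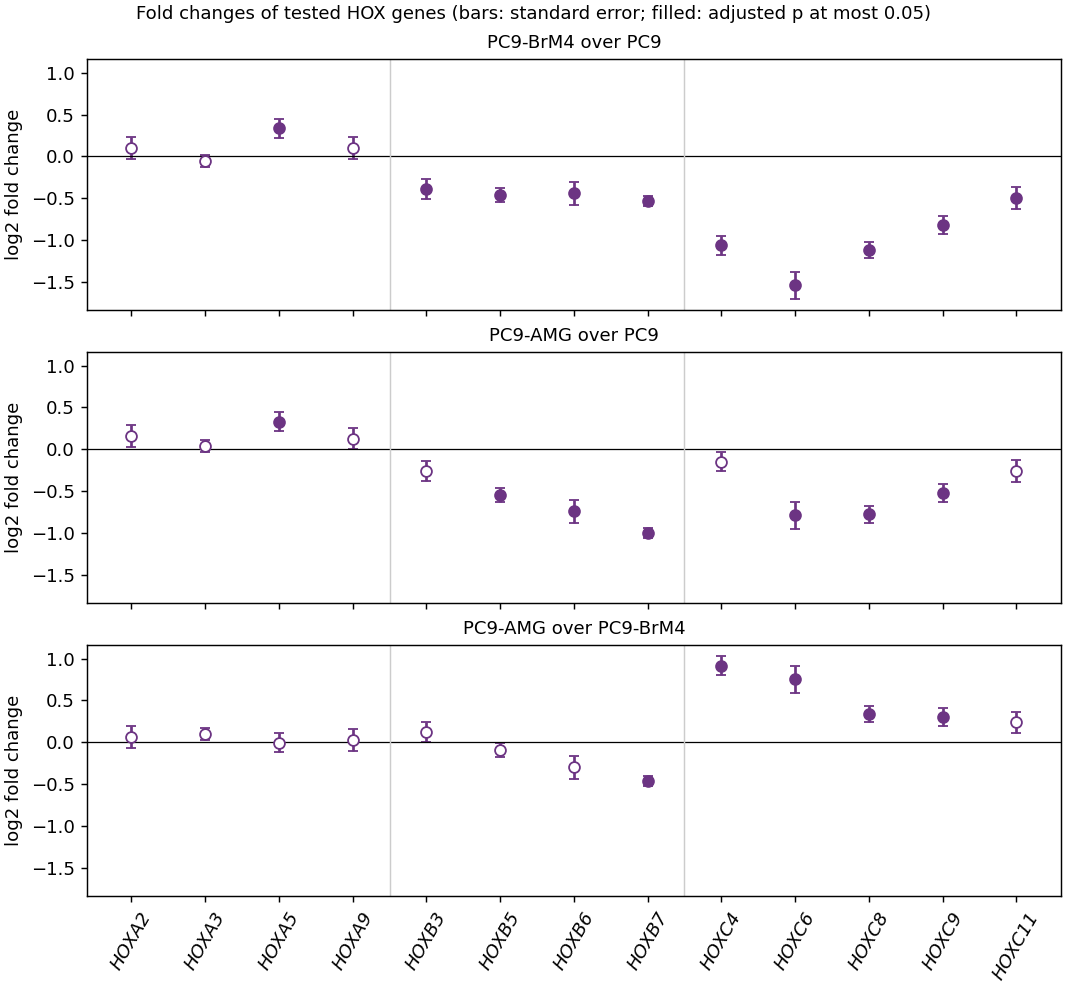
Log2 fold change, on the log2(TPM + 1) scale, of tested HOX genes in cluster order, for PC9-BrM4 over PC9 (top), PC9-AMG over PC9 (middle) and PC9-AMG over PC9-BrM4 (bottom). Bars are standard errors from limma, filled points have an adjusted p of at most 0.05, and grey lines separate HOXA, HOXB and HOXC. HOXA points lie near 0 in each panel, except HOXA5 at 0.34 in PC9-BrM4 over PC9 and 0.33 in PC9-AMG over PC9. HOXB7 is lowest of its cluster in PC9-AMG at -0.996, and HOXC6 is lowest in PC9-BrM4 at -1.54.

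PC9-AMG and PC9-BrM4 were also compared directly. Of the 14 tested HOX genes, 4 were higher and 1 was lower in PC9-AMG than in PC9-BrM4, and of all tested genes 28.1% were higher and 28.0% lower (56.1% in either direction). Without overlap between libraries, 8 of the 14 were higher and 3 lower, against 38.2% and 39.3% of all tested genes. HOXC4 had 2.27 and 2.08 TPM in PC9-AMG and 0.632 and 0.740 TPM in PC9-BrM4. HOXC6 had 2.20 and 2.33 TPM in PC9-AMG and 0.634 and 1.29 TPM in PC9-BrM4. Both were above PC9-BrM4 in each PC9-AMG library, with log2 fold changes of 0.91 ± 0.11 for HOXC4 and 0.75 ± 0.16 for HOXC6 (SE, limma adjusted p = 0.00038 and 0.0053). HOXC4 passed the filter only through PC9-AMG and PC9. The fit without a filter called it higher too (limma adjusted p = 0.0017). HOXB7 went the other way, with 22.1 and 22.2 TPM in PC9-AMG against 31.8 and 30.0 TPM in PC9-BrM4 (log2 fold change -0.46, limma adjusted p = 0.00043). HOXC8 and HOXC9 were higher by 0.34 and 0.30 on the log2 scale (limma adjusted p = 0.020 and 0.046), and these calls were the weakest. HOXC8 lost its call without PC9-AMG replicate 1 or replicate 2 (adjusted p = 0.0755 and 0.0623) or without PC9-BrM4 replicate 1 (0.0601), and HOXC9 lost its call without any 1 of the 6 libraries (0.0607 to 0.186). HOXB6 had a log2 fold change of -0.30 and did not pass (adjusted p = 0.097), but passed without PC9-BrM4 replicate 1 (adjusted p = 0.035). With a pseudocount of 0.1 TPM, HOXC4, HOXC6, HOXC8 and HOXC9 had log2 fold changes of 1.53, 1.22, 0.52 and 0.46.

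Among genes under the filter, HOXC10 had 0.934 and 1.06 TPM in PC9-AMG and 0.133 and 0.051 TPM in PC9-BrM4, and HOXC13 had 0.584 and 0.650 TPM in PC9-AMG and 0.147 and 0.248 TPM in PC9-BrM4. Neither gene had overlapping libraries between these lines. The fit without a filter called both higher in PC9-AMG, with log2 fold changes of 0.87 for HOXC10 and 0.44 for HOXC13 (limma adjusted p = 0.00078 and 0.039). It called 9 of 30 HOX genes in this comparison, 8 higher and 1 lower. Of all genes it called 21.9% higher and 19.2% lower (41.2% in either direction). From HOXC4 to HOXC13, each of the HOXC genes with any transcripts thus had a higher mean in PC9-AMG than in PC9-BrM4, down to HOXC11 with 2.03 ± 0.029 TPM in PC9-AMG and 1.58 ± 0.229 TPM in PC9-BrM4 (SD, n = 2), which did not pass.

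Gene models overlap within the clusters, which limits single values. HOXC4, HOXC5 and HOXC6 share a start and much of their length on the same strand, so reads in shared stretches could have been given to any of them. Added together, they had 1.38 and 2.11 TPM in PC9-BrM4, 4.73 and 4.79 TPM in PC9-AMG, and 7.35 and 7.66 TPM in PC9, without overlap between the lines. The sum fell in PC9-BrM4 (log2 fold change -1.65, limma adjusted p = 8.7e-05) and in PC9-AMG (-0.56, adjusted p = 0.0086), and was higher in PC9-AMG than in PC9-BrM4 (1.08, adjusted p = 0.00036). This sum was added after the data were seen. Overlaps with another model were present for 18 of the 39 HOX genes, on the same strand for 6 and on the opposite strand for 14. The library kit marks strand, but no source used here says whether the counting used it, so HOX genes with an expressed antisense partner (HOXA3 and HOXA4 with HOXA-AS2, HOXA10 with HOXA10-AS, HOXC11 with HOTAIR) are uncertain in that respect. HOXA9 and HOXA10 also overlap the readthrough model HOXA10-HOXA9, which was listed at 0.

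Only 3 noncoding genes of the clusters, of 25 listed and 22 present in the tables, passed the filter. HOTAIR, an antisense RNA of the HOXC cluster known to bind Polycomb complexes, had 2.13 and 2.98 TPM in PC9-BrM4, 3.65 and 3.37 TPM in PC9-AMG, and 5.77 and 6.55 TPM in PC9. It fell in both sublines, as its host cluster's middle genes did, with log2 fold changes of -1.02 in PC9-BrM4 and -0.66 in PC9-AMG (limma adjusted p = 0.00075 and 0.0042). HOXA-AS2, antisense to HOXA3, had 7.92 and 6.92 TPM in PC9-BrM4, 6.99 and 6.68 TPM in PC9-AMG, and 13.5 and 13.9 TPM in PC9. It fell in PC9-BrM4 and PC9-AMG (-0.80 and -0.90, limma adjusted p = 0.00033 and 0.00015), while HOXA3 itself did not pass in either. HOXA10-AS was higher in both sublines, at 9.60 and 9.28 TPM in PC9-BrM4 and 9.34 and 9.37 TPM in PC9-AMG, against 7.33 and 6.31 TPM in PC9 (0.42 and 0.41, limma adjusted p = 0.0069 and 0.0063). Its antisense partner HOXA10 was almost without transcripts in the same libraries.

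**Figure D4:**
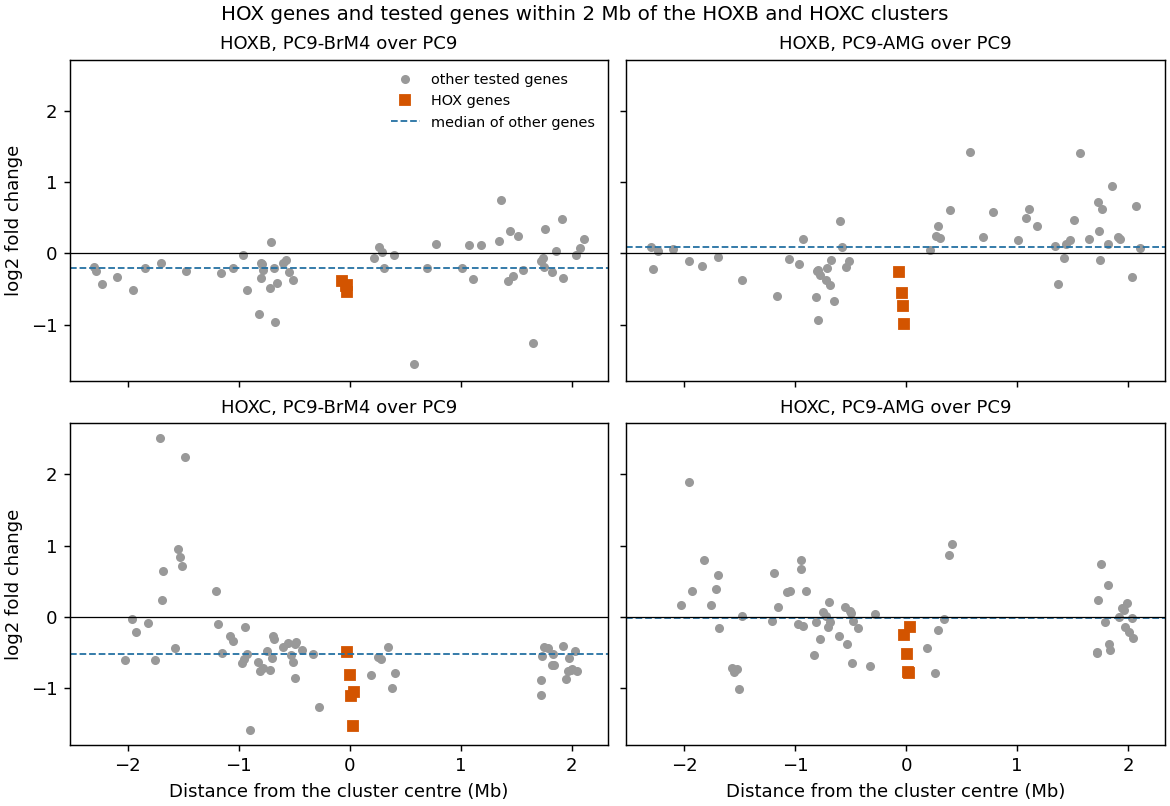
Log2 fold change of HOX genes (squares) and of other tested genes (circles) against distance from the centre of the HOXB cluster (top) and the HOXC cluster (bottom), in Mb along the chromosome, for PC9-BrM4 over PC9 (left) and PC9-AMG over PC9 (right). The dashed line is the median of the other genes within 2 Mb on each side, which is -0.52 around HOXC in PC9-BrM4 and near 0 in PC9-AMG.

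Most genes around the HOXC cluster fell in PC9-BrM4 too. Of 63 other tested genes within 2 Mb on either side, 49 fell, 7 rose and the median log2 fold change was -0.52 in PC9-BrM4 over PC9, where 23.1% of all tested genes fell and 23.4% rose. The nearest tested protein-coding neighbours in the lists were CALCOCO1, a coactivator and autophagy receptor, at -1.27 on the HOXC13 side, and SMUG1, a DNA repair glycosylase, at -0.82 on the HOXC4 side (limma adjusted p = 4.2e-05 and 0.00017). In PC9-AMG over PC9 the same region had 20 genes that rose and 18 that fell, with a median of -0.02. Of all tested genes, 27.8% rose and 27.7% fell there. Nearer the cluster, of 8 tested genes in the list of HOXC neighbours, 0 rose and 5 fell in PC9-AMG, with a median of -0.31. SMUG1 was at -0.43 and CALCOCO1 at 0.04. ZNF385A and ITGA5, at similar distance but not in the list, rose (0.87 and 1.02). In PC9-AMG over PC9-BrM4 the 2 Mb region had 47 higher and 8 lower, with a median of 0.46. Of all tested genes, 28.1% were higher and 28.0% lower in that comparison. Around HOXB, the median of 57 other tested genes was -0.20 in PC9-BrM4 and 0.09 in PC9-AMG, each against PC9. Of these genes, 7 rose and 22 fell in PC9-BrM4, and 19 rose and 12 fell in PC9-AMG. Most of the called falls in PC9-AMG lay on the HOXB1 side, and most of the called rises on the HOXB13 side. The median of 0.09 therefore describes neither side. In PC9-BrM4 all 7 called rises also lay on the HOXB13 side, and nearly all genes on the HOXB1 side had negative fold changes. The median of -0.20 thus mixes unlike sides too. The part of the regional shift in the HOX differences was not tested. With the regional median subtracted, a step added after the data were seen, HOXC6, HOXC8, HOXC4 and HOXC9 stood at -1.02, -0.60, -0.54 and -0.30 in PC9-BrM4 over PC9, and HOXC11 at 0.03. HOXB7, HOXB5, HOXB6 and HOXB3 stood at -0.34, -0.26, -0.24 and -0.19 in the same comparison, each smaller in size than before by more than 1.5 times. In PC9-AMG over PC9, HOXB7, HOXB6, HOXB5 and HOXB3 stood at -1.09, -0.83, -0.64 and -0.36, each larger in size than before. In PC9-AMG over PC9-BrM4, HOXC8 and HOXC9 turned to -0.12 and -0.16, HOXC11, which had not passed, stood at -0.22, HOXC4 at 0.46, HOXC6 at 0.30 and HOXB7 at -0.72.

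Cofactors of HOX proteins were described from a list of 9 PBX, MEIS and PKNOX genes, of which 8 were tested. In PC9-BrM4, 0 rose and 3 fell, MEIS1 and MEIS2 among them, and in PC9-AMG 3 rose and 3 fell. Their medians were -0.07 in PC9-BrM4 and -0.08 in PC9-AMG, and those of all tested genes were within 0.01 of 0. As a background, 23.4% of all tested genes rose and 23.1% fell in PC9-BrM4, and in PC9-AMG 27.8% rose and 27.7% fell. MEIS1, which binds DNA beside HOX proteins, had 2.01 and 2.32 TPM in PC9-BrM4, 1.51 and 1.64 TPM in PC9-AMG, and 3.54 and 2.91 TPM in PC9. It was lower in each subline without overlap with PC9, with log2 fold changes of -0.42 in PC9-BrM4 and -0.71 in PC9-AMG for MEIS1 (limma adjusted p = 0.024 and 0.0018). MEIS3 had 0.741 and 0.690 TPM in PC9-BrM4, 2.40 and 2.11 TPM in PC9-AMG, and 0.776 and 0.918 TPM in PC9, and it rose in PC9-AMG (0.82, limma adjusted p = 0.0008).

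Genes of Polycomb proteins were tested as a list of 31. Of these, 7 rose and 6 fell in PC9-BrM4, and 7 rose and 8 fell in PC9-AMG, with medians of -0.003 and -0.05. For comparison, of all tested genes 23.4% rose and 23.1% fell in PC9-BrM4, and 27.8% rose and 27.7% fell in PC9-AMG. In PC9-BrM4 the larger rises were those of C17orf96 and CBX2 (0.63 and 0.47, limma adjusted p = 0.00067 and 0.0017), and CBX6 had the largest fall (-0.44, adjusted p = 0.00072); CBX2 and CBX6 belong to a family that reads the Polycomb histone mark. In PC9-AMG, CBX2 rose as well (0.65, limma adjusted p = 0.00027), and BMI1, a core subunit, had the largest fall (-0.70, adjusted p = 4.0e-05). Of 24 activators of HOX transcription, 6 rose and 4 fell in PC9-BrM4, and 10 rose and 4 fell in PC9-AMG. KMT2A, the methyltransferase that maintains HOX expression, rose in both sublines, at 27.7 and 37.8 TPM in PC9-BrM4 and 30.7 and 26.9 TPM in PC9-AMG, against 20.0 and 19.6 TPM in PC9 (0.68 and 0.52, limma adjusted p = 0.0048 and 0.013). DOT1L, another histone methyltransferase, had the largest rise of the list in PC9-AMG (0.74, adjusted p = 0.0021), and KDM6A, a demethylase of the Polycomb mark, the largest fall in PC9-BrM4 (-0.57, adjusted p = 0.002).

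Retinoic acid induces HOX genes in the embryo, and CDX proteins activate middle ones. CDX1, CDX2 and CDX4 were listed at 0 in all 6 libraries. Of 21 genes in the list of CDX and retinoic acid genes, 13 were tested. In PC9-BrM4, 2 rose and 9 fell, and in PC9-AMG, 0 rose and 7 fell, with medians of -0.29 and -0.19, while of all tested genes 23.4% rose and 23.1% fell in PC9-BrM4, and 27.8% rose and 27.7% fell in PC9-AMG. ALDH1A3, the more abundant of the enzymes that make retinoic acid, had 399 and 439 TPM in PC9-BrM4, 374 and 344 TPM in PC9-AMG, and 351 and 350 TPM in PC9. It rose in PC9-BrM4 (0.26, limma adjusted p = 0.0098 for ALDH1A3) and did not pass in PC9-AMG (0.03, adjusted p = 0.647). ALDH1A1, a related enzyme, had 0.754 and 0.806 TPM in PC9-BrM4, 0.974 and 1.12 TPM in PC9-AMG, and 3.82 and 2.87 TPM in PC9, the largest fall of the list in both sublines (-1.28 and -1.08, limma adjusted p = 0.00027 and 0.00045). DHRS3, an enzyme that limits retinoic acid and is itself induced by it, had 41.7 and 38.3 TPM in PC9-BrM4, 56.6 and 62.2 TPM in PC9-AMG, and 91.6 and 89.8 TPM in PC9. RARG, a retinoic acid receptor, had 47.2 and 49.1 TPM in PC9-BrM4, 63.9 and 64.9 TPM in PC9-AMG, and 79.8 and 79.9 TPM in PC9. Both had the order of lines seen in the HOXC sum, with log2 fold changes in PC9-BrM4 of -1.16 for DHRS3 and -0.72 for RARG (limma adjusted p = 1.7e-05 and 3.3e-05). RARG lies within 2 Mb of the HOXC cluster. STRA6, a retinol transporter, had 26.6 and 27.9 TPM in PC9-BrM4, 58.8 and 56.0 TPM in PC9-AMG, and 53.8 and 54.0 TPM in PC9, and it fell in PC9-BrM4 (-0.96, limma adjusted p = 1.7e-05) and did not pass in PC9-AMG (0.09, adjusted p = 0.191). It was higher in PC9-AMG than in PC9-BrM4 (1.05, limma adjusted p = 6.1e-06).

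**Figure D5:**
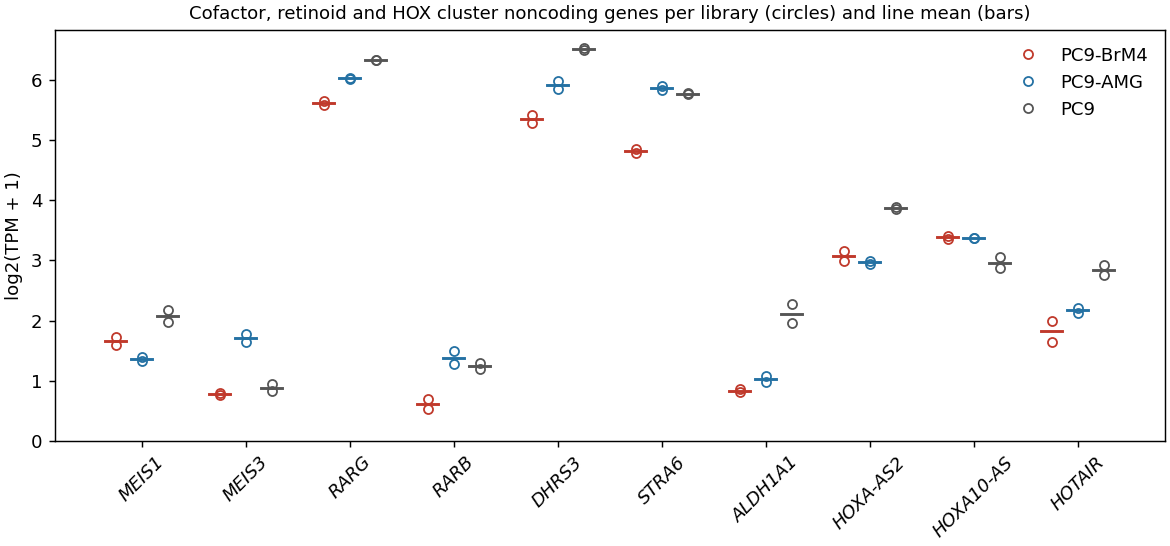
Levels of HOX cofactor genes (MEIS1, MEIS3), retinoic acid genes (RARG, RARB, DHRS3, STRA6, ALDH1A1) and noncoding genes of the HOX clusters (HOXA-AS2, HOXA10-AS, HOTAIR) in each library. The vertical axis is log2(TPM + 1), circles are libraries of PC9-BrM4 (left), PC9-AMG (middle) and PC9 (right), and short bars are line means (n = 2). MEIS1, DHRS3, RARG, HOXA-AS2 and HOTAIR are highest in PC9, and MEIS3 is highest in PC9-AMG.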

How the data were processed

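TRIzol extraction and the TruSeq Stranded mRNA kit are given in the labels' protocols. For the upstream steps, the submitters' processing notes list HISAT2 2.1.0, StringTie 1.3.4d, bcl2fastq and hg38, and say nothing of their roles. Per the file headers, the authors deposited TPM, FPKM and a coverage signal per gene for each library. A table of the whole series, with 6 columns of samples, was not used, because some of its column names match no sample title. The tables of PC9-AMG carry EMG in their names and were assigned by the sample records.

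Here log2(TPM + 1) of genes with at least 1 TPM in at least 2 of the 6 libraries (14195 genes) entered a linear model in limma 3.58.1 (R 4.3.3) with a mean per line, a mean-variance trend and 3 residual degrees of freedom. Adjustment ran over all genes tested. Some genes near the 1 TPM of the filter, HOXA5, HOXC4, MEIS3 and MNX1 among them, passed it only through lines in which they were higher. The fit was tested on simulated data. The deposited FPKM served as an alternative. Read numbers are unknown, so no counting interval is given. No label says whether the 2 libraries of a line came from different cultures. The p-values therefore reflect only how far these libraries differ, which may be technical. Per-library values are given for HOX genes of at least 10 TPM on average in any line or called in any comparison, and others are added for context after their values were seen. From each list, genes with large called changes are named, with others chosen after their values were seen. Some genes are not reported here. The members and lists were chosen with earlier results of these data known.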

Additional observations from a re-analysis of the deposited data

How the results depend on the processing

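Of 22 calls for HOX genes named above, 15 held in each of the 13 to 16 alternatives run for them. Among these, HOXC4 had no value with FPKM, and HOXC4, HOXC6, HOXC8 and HOXC9 none at the 5 TPM filter. Another 7 calls were lost under at least 1 alternative and 0 reversed, the removal of the regional median apart. The lost ones were HOXA5 in both sublines, HOXB3, HOXB6 and HOXC11 in PC9-BrM4, and HOXC8 and HOXC9 in PC9-AMG over PC9-BrM4. Of 11 results not called, 2 passed in at least 1 alternative. The number of HOX genes called was 10 in PC9-BrM4 over PC9, 7 in PC9-AMG over PC9 and 5 in PC9-AMG over PC9-BrM4. It was 3, 3 and 1 with at least 5 TPM in 2 libraries, and 6, 6 and 3 with FPKM. Fewer HOX genes were tested in both settings. With FPKM, HOXA5, HOXB3, HOXC4 and HOXC11 were not tested. That does not account for the whole drop in PC9-AMG over PC9-BrM4. With no filter it was 11, 11 and 9, since more HOX genes were tested. Leaving out 1 library gave 7 to 8, 6 to 7 and 3 to 4. The number of active HOX genes, 10, was 6 with FPKM and 6 at a level of 2 TPM. Uncalled results reversed for HOXA5 in PC9-AMG over PC9-BrM4 without 1 library (from -0.0509 to 0.0411, and 0.0375 without PC9-BrM4 replicate 2) and for HOXB3 there with quantile normalization (-0.0063). Removing the regional median was not counted among the alternatives. It reversed called results of HOXC11 in PC9-BrM4 (0.0275), and of HOXC8 (-0.12) and HOXC9 (-0.16) in PC9-AMG over PC9-BrM4. Replicate numbers did not pair the libraries: replicate differences correlated at -0.069, -0.028 and -0.063 between lines. With a replicate block, 9, 6 and 5 HOX genes were called; HOXA5 (adjusted p = 0.0593 and 0.0533) and HOXC9 in PC9-AMG over PC9-BrM4 (0.0562) were lost, and HOXB6 was gained there (0.0364). Depth and 2 replicates per line limit what can be said of HOX genes under 1 TPM.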

Other observations

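Homeobox genes outside the clusters but linked or related to HOX genes were mostly silent. Of 16 in the list, 3 were tested. DLX3, a gene of skin and placenta that lies within 2 Mb of the HOXB cluster, had 4.42 and 4.06 TPM in PC9-BrM4, 1.32 and 1.29 TPM in PC9-AMG, and 2.11 and 2.09 TPM in PC9. It rose in PC9-BrM4 and fell in PC9-AMG, with log2 fold changes of 0.75 and -0.43 (limma adjusted p = 0.00077 and 0.0081), whereas HOXB7 fell in both. MNX1, a motor neuron and pancreas gene, had 1.54 and 1.49 TPM in PC9-BrM4, 0.433 and 0.364 TPM in PC9-AMG, and 0.211 and 0.203 TPM in PC9, and rose in PC9-BrM4 (1.06, limma adjusted p = 0.0003). EVX2, next to the HOXD cluster, was listed at 0 in all 6 libraries, and EVX1, next to HOXA, had at most 0.019 TPM.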
